A study of Mus musculus with 59 samples.

Results

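The genes described here are the 5 that make dopamine and carry it across membranes: Th, Ddc, Gch1, Slc6a3 and Slc18a2. They were taken by symbol from the 24346 symbols of a table of RNA sequencing of the ventral tegmental area (VTA) of male mice, and all 5 were found in each of its 59 libraries. The VTA is the midbrain region whose dopamine neurons project to the striatum and cortex. The groups were intravenous self-administration of cocaine (15 libraries) and of saline (9), acute home cage injection of cocaine (5) and of saline (6), chronic home cage injection of cocaine (6) and of saline (6), and conditioning with cocaine (6) and with saline (6). The labels give no strain, age, dose, number of sessions or time between the last exposure and tissue collection. Nor do they state that each library of a group is from a different animal; the p-values therefore describe the spread among libraries, part or all of which may be technical.

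Dopamine is made in 2 steps: tyrosine hydroxylase (Th), the rate-limiting enzyme, turns tyrosine into L-DOPA, and aromatic L-amino acid decarboxylase (Ddc) turns L-DOPA into dopamine. Tyrosine hydroxylase needs the cofactor tetrahydrobiopterin, and GTP cyclohydrolase (Gch1) carries out the first and limiting step of making that cofactor. The vesicular monoamine transporter (Slc18a2) loads dopamine into synaptic vesicles, and the dopamine transporter (Slc6a3), the protein that cocaine blocks, takes released dopamine back into the neuron. Members of the set also serve other neurons, among them Ddc and Slc18a2 in serotonin neurons and Th, Ddc and Slc18a2 in noradrenaline neurons. Markers of those other neurons were low here: the summed level of the noradrenaline neuron genes Dbh, Pnmt and Slc6a2 was at most 0.140 FPKM (fragments per kilobase of transcript, scaled to library size) in any library, and 4 serotonin neuron genes summed to between 6.54 and 14.4 FPKM, with the serotonin transporter Slc6a4 at no more than 2.41 FPKM. The 5 genes summed to at least 409 FPKM in every library, and none of 15 other dopamine neuron markers was listed at 0 in all libraries of any group.

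All 5 genes are protein coding and lie on different chromosomes in the GENCODE M21 annotation of GRCm38: Th at chr7:142892752-142931128 on the minus strand, Ddc at chr11:11814101-11898144 on the minus strand, Gch1 at chr14:47153895-47189413 on the minus strand, Slc6a3 at chr13:73536747-73578672 on the plus strand and Slc18a2 at chr19:59260896-59296012 on the plus strand. Ddc overlaps the antisense gene 1700042O10Rik, which averaged 0.0860 FPKM. Slc18a2 overlaps the antisense gene Gm29261, and Gch1 holds a pair of processed pseudogenes, none of which was analysed here. Whether the reads were counted by strand is not stated. The promoters of 4 of the genes are shown because their windows hold matches to regulatory motifs. The RefSeq start of Th lies inside the span that GENCODE gives the gene. Each sequence runs 5′ to 3′ on the strand of the gene, from 250 bases before to 50 bases after the transcription start in RefSeq (GRCm38.p6), with motif matches in capitals.
Th, chr7:142899946-142900245: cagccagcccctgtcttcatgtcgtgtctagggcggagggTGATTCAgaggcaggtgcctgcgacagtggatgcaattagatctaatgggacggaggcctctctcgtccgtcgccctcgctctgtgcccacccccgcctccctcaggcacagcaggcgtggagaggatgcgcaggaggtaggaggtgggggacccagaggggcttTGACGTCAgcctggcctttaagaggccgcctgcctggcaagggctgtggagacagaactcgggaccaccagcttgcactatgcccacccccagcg
Gch1, chr14:47189364-47189663: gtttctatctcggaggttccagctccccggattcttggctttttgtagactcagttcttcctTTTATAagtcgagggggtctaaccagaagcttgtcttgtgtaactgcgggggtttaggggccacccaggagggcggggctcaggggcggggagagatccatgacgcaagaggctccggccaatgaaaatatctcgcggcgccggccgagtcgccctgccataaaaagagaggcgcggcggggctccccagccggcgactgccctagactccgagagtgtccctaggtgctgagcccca
Ddc, chr11:11898095-11898394: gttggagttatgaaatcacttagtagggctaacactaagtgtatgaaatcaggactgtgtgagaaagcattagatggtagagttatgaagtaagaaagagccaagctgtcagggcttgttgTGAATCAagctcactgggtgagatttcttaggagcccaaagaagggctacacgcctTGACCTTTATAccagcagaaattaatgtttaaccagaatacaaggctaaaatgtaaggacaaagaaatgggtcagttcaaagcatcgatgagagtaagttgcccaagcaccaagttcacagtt
Slc18a2, chr19:59260628-59260927: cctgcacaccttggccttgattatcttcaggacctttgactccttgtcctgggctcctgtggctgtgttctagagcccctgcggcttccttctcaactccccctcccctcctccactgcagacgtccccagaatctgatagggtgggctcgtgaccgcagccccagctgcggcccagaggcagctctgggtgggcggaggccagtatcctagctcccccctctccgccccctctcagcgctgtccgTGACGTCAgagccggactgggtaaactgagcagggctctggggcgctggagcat

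In all, 4 motifs were searched on both strands of each 300-base window. Positions given are those of the first base of a match. The cAMP response element, TGACGTCA, was found in Th, 45 bases before the start. In Slc18a2 it began 4 bases before the start and ran past it. It is present in 1.79% of the 32851 RefSeq promoter windows of the same length. The AP-1 site, TGANTCA, was found in Th (210 bases before the start) and in Ddc (129 bases before), and in 7.81% of all windows. The NBRE, AAAGGTCA, the sequence read by NR4A factors such as Nr4a2, was found on the opposite strand of Ddc 73 bases before the start, and in 1.51% of all windows. The TATA box letters TATAAA were found on the opposite strand in Ddc, where they overlap the NBRE match, and in Gch1, and in 13.6% of all windows. The window of Slc6a3 and that of a second start of Ddc held none of these letters. A match is a description of the sequence only.

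The self-administration libraries stood apart from the others throughout the transcriptome. Between self-administration saline and the mean of the other 3 saline groups, 7867 of 13202 genes (59.6%) passed an adjusted p of 0.05 in limma on log2(FPKM + 1), 4201 higher (31.8%) and 3666 lower (27.8%). The labels name no batch, so the paradigm and any batch that goes with it cannot be told apart. Cell type markers moved too: 4 of 5 oligodendrocyte genes were called lower (summed level 3411 to 7592 FPKM in self-administration saline, against 5192 to 8426 FPKM in the other saline libraries) and of 4 red blood cell genes 3 were called higher and 1 lower (33.5 to 1065 FPKM in self-administration saline, against 31.9 to 262 FPKM). Calls were also made in the lists for astrocytes (2 higher and 1 lower of 5), microglia (2 lower of 4), endothelium (2 lower of 4), GABA neurons (2 higher and 1 lower of 3), all neurons (1 lower of 4) and hypothalamus (2 higher of 6). Their part in the results was not tested. Sums of all FPKM in a library lay between 398577 and 457508.

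The enzymes and transporters were among the abundant transcripts of the tissue, with the exception of Gch1. Over the 59 libraries Th lay between 124 and 691 FPKM (median 283), Ddc between 112 and 451 (median 231), Slc6a3 between 107 and 608 (median 270.3), Slc18a2 between 53.7 and 237 (median 115) and Gch1 between 5.15 and 31.2 (median 12.1). Since FPKM is divided by transcript length, these levels can be set side by side: the cofactor enzyme was the lowest of the 5 in every library. In bulk tissue, fewer dopamine neurons in the dissection and less RNA per neuron cannot be told apart.

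Th, the rate-limiting enzyme, had 497, 503, 205, 207 and 124 FPKM in the 5 acute cocaine libraries, against 293, 361 and 562 FPKM as the lowest, median and highest of the acute saline libraries. In chronic cocaine libraries the lowest, median and highest were 194, 416 and 691 FPKM, against 135, 372 and 620.5 FPKM in chronic saline. In conditioning they were 146, 283 and 655 FPKM with cocaine and 165, 286 and 538 FPKM with saline. The groups overlapped in all 3 paradigms, and a single group spanned up to a 4.58-fold range. In self-administration the lowest, median and highest Th levels were 131, 231 and 499 FPKM with cocaine and 128, 239.6 and 493 FPKM with saline, again overlapping almost fully.

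Gch1, the cofactor enzyme, followed the same libraries up and down. It had 22.1, 22.0, 9.86, 10.9 and 7.50 FPKM in the 5 acute cocaine libraries, the same pair being high and the same 3 low as for Th, against 13.2, 15.5 and 25.6 FPKM as the lowest, median and highest in acute saline. The corresponding values were 10.7, 19.0 and 27.7 FPKM in chronic cocaine against 7.37, 16.9 and 26.6 FPKM in chronic saline, and 7.18, 13.6 and 31.2 FPKM in cocaine conditioning against 8.50, 13.6 and 21.4 FPKM in saline conditioning. Both self-administration groups had lower medians than the other 6 groups: the lowest, median and highest were 5.67, 9.75 and 22.6 FPKM with cocaine and 5.15, 10.2 and 18.4 FPKM with saline.

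Ddc averaged 217 ± 108 FPKM in acute cocaine and 269.5 ± 57.9 FPKM in acute saline (SD, n = 5 and 6). Slc6a3 averaged 261 ± 165 and 342 ± 80.9 FPKM in the same groups, and Slc18a2 averaged 109 ± 58.3 and 140.5 ± 34.95 FPKM. In self-administration Ddc averaged 237 ± 80.3 FPKM with cocaine and 256 ± 108 FPKM with saline, Slc6a3 averaged 272 ± 121 and 318 ± 154 FPKM, and Slc18a2 averaged 119 ± 44.3 and 131 ± 62.4 FPKM (SD, n = 15 and 9). When the 8 groups are ordered by mean level, chronic cocaine is first for all 5 genes, at 424 ± 167 FPKM for Th and 18.8 ± 5.96 FPKM for Gch1. Th and Gch1 were lowest in the 2 self-administration groups, whereas Ddc, Slc6a3 and Slc18a2 were lowest in acute cocaine. In each of these orders every gap between neighbouring groups was smaller than the larger SD of the pair. Neighbours in a sorted order are close by construction, and the SD describes single libraries, so this does not test whether groups differ.

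**Figure D1:**
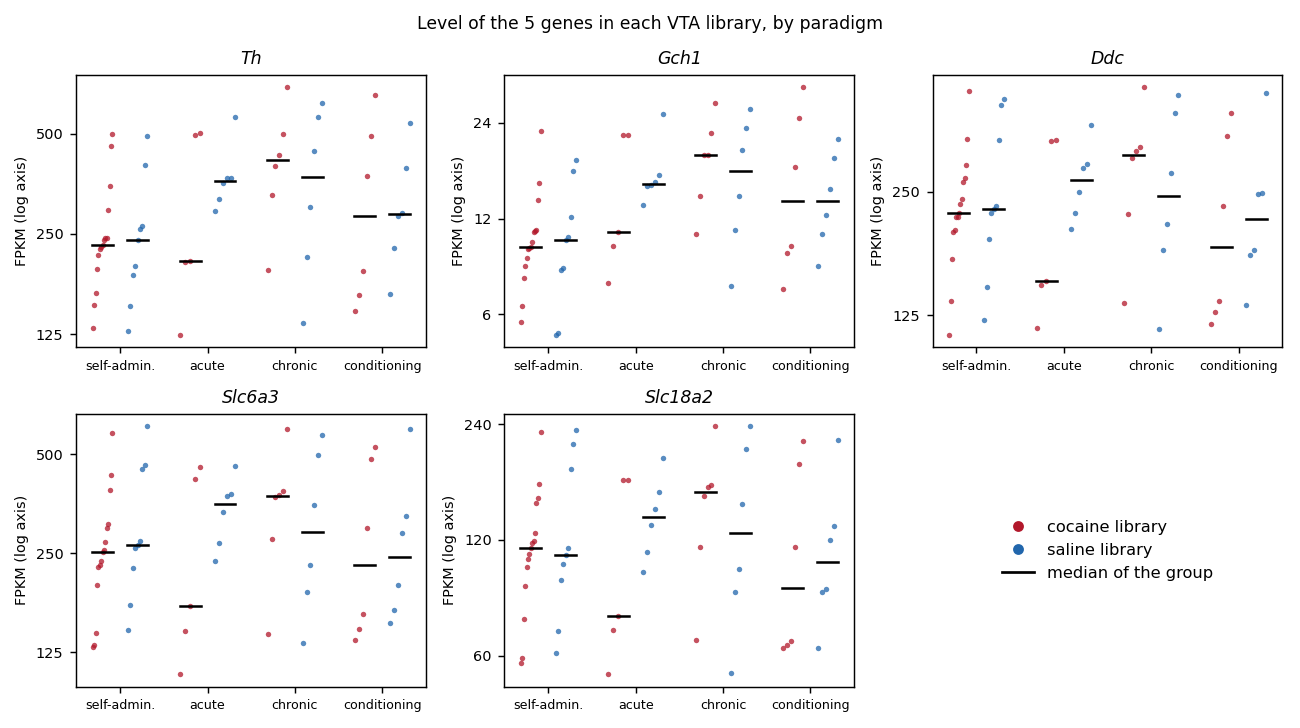
FPKM of each gene (log axis) in the 59 libraries, by paradigm, with cocaine (red) left of saline (blue); each point is a library and each bar the median of its group. Groups overlap in every panel, and Gch1 medians are lowest in the 2 self-administration groups, at 9.75 and 10.2 FPKM.

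Cocaine and saline were then compared within each paradigm, the question the study's design poses, and none of the 5 genes passed the test. In acute injection all 5 were lower with cocaine without passing the test: the log2 differences, cocaine minus saline, were -0.60 ± 0.40 (SE) for Slc6a3, -0.50 ± 0.34 for Slc18a2, -0.47 ± 0.37 for Th, -0.43 ± 0.30 for Ddc and -0.30 ± 0.28 for Gch1, each with an adjusted p of 0.985 in limma. Here no gene of 13164 tested was called (0.0%), and 515 (3.91%) had an unadjusted p under 0.05. The median difference of the 5 genes was -0.47, against -0.00 for all genes, and 14 of the 15 other dopamine neuron markers also had negative differences, with a median of -0.35. The summed level of those markers lay between 556 and 1254 FPKM in acute cocaine and between 779 and 1393 FPKM in acute saline. With the marker mean as a covariate the acute differences were -0.11 for Slc6a3, -0.08 for Slc18a2, -0.01 for Th, -0.05 for Ddc and 0.05 for Gch1. With library weights they were -0.20, -0.15, -0.13, -0.12 and -0.06 for the same genes.

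In chronic injection all 5 differences were positive, from 0.17 ± 0.37 for Ddc to 0.25 ± 0.42 for Th, with adjusted p between 0.925 and 0.950; all 5 were below 0 with library weights and without chronic saline library 2. In conditioning they lay between -0.14 ± 0.38 (Ddc) and 0.07 ± 0.37 (Gch1). In self-administration they lay between -0.20 ± 0.26 (Slc6a3) and 0.06 ± 0.20 (Gch1), with Th at 0.03 ± 0.23. The median of the 5 differences was 0.19 in chronic injection, -0.04 in conditioning and -0.07 in self-administration, and 13 of 15, 3 of 15 and 6 of 14 of the other dopamine neuron markers had positive differences. The tests called 0.0% of 13190 genes in chronic injection, 0.0% of 13135 in conditioning and 0.0% of 13130 in self-administration, where 974 (7.38%), 1078 (8.21%) and 450 (3.43%) had an unadjusted p under 0.05.

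Averaged over the 4 paradigms, the difference was -0.04 ± 0.17 for Th (adjusted p 0.956), -0.10 ± 0.15 for Ddc (0.810), 0.02 ± 0.14 for Gch1 (0.970), -0.16 ± 0.18 for Slc6a3 (0.743) and -0.11 ± 0.17 for Slc18a2 (0.821), by limma with all 8 groups. In that comparison 1 of 13186 genes was called (0.00758%). The difference between cocaine effects of 2 paradigms was widest for chronic minus acute, at 0.78 ± 0.58 for Slc6a3 and 0.72 ± 0.54 for Th, and none of the 6 such contrasts passed for any of the 5 genes.

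**Figure D2:**
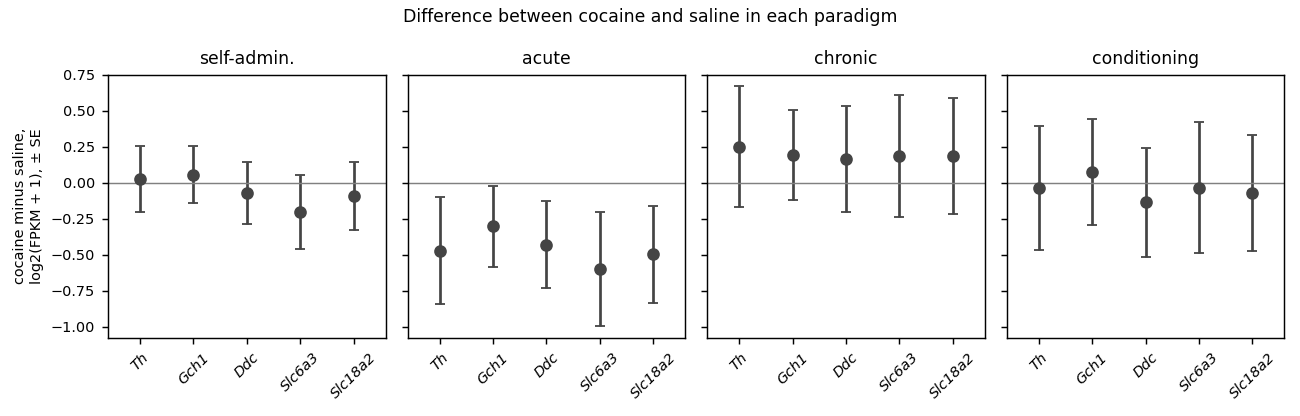
Difference in log2(FPKM + 1), cocaine minus saline, for each gene (x axis) in each paradigm; points are limma estimates and bars 1 SE. All 5 points lie below 0 in acute injection and above 0 in chronic injection, and no difference passed the test.

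No gene that works with the 5 was called for cocaine either. None of the 6 other genes of the tetrahydrobiopterin pathway passed in any paradigm. The smallest unadjusted p belonged to Qdpr, which regenerates the cofactor, at 0.20 ± 0.08 in acute cocaine (adjusted p 0.985, limma). None of 8 genes for proteins that bind or regulate tyrosine hydroxylase or the transporters passed; the smallest unadjusted p belonged to Stx1a, a syntaxin of the release machinery, at -0.32 ± 0.09 in conditioning (adjusted p 0.591). Of the 15 dopamine neuron markers none passed either, and Nr4a2, a transcription factor that dopamine neurons need, was at -0.44 ± 0.19 in conditioning (adjusted p 0.596). Of 5 tested genes for dopamine breakdown or uptake elsewhere, Slc29a4, a plasma membrane monoamine transporter, had the smallest unadjusted p, at 0.25 ± 0.09 in self-administration (adjusted p 0.999).

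The 5 transcripts varied together from one library to the next within a group. Deviations of log2(FPKM + 1) from the group mean correlated with r of 0.997 between Ddc and Slc18a2 over the 35 acute, chronic and conditioning libraries (Spearman's rho 0.982), and r of 0.989 between Th and Gch1 (rho 0.982). The lowest of the 10 pairs there was Gch1 with Slc6a3, at r of 0.932 (rho 0.920). Over the 24 self-administration libraries r lay between 0.886 (Th with Slc18a2) and 0.987 (Ddc with Slc18a2), and rho between 0.798 and 0.977. Each of the 20 correlations had a permutation p of 1e-05 or 2e-05, where 1e-05 is the smallest that 100000 resamples can give, and an adjusted p of at most 2e-05. Without the 2 libraries farthest from the median, r was between 0.836 and 0.996. All points of such a correlation share their library's total and its share of dopamine neuron RNA.

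Slc18a2 and Ddc were each other's closest gene of 13185 compared, with r of 0.993 over the 59 libraries. Among the 13181 genes outside the 5, those most like Th were Ntsr1 (a neurotensin receptor, r 0.978), Ret (the GDNF receptor kinase, 0.970), Chrnb3 (0.961), Slc39a4 (0.959) and Syt17 (0.956). For Gch1 they were Chrnb3 (0.972), March4 (0.963), En1 (0.956), Slc10a4 (0.956) and Cadps2 (0.955). Ddc was most like Chrna6 (0.985), Trpc6 (0.983), Cadps2 (0.983), Slc10a4 (0.983) and Chrnb3 (0.979), where Chrna6 and Chrnb3 are nicotinic receptor subunits of dopamine neurons. Slc18a2 was most like Cadps2 (0.987), Trpc6 (0.986), Slc10a4 (0.985), Chrna6 (0.985) and Chrnb3 (0.980), and Slc6a3 most like Fam167a (0.981), Slc10a4 (0.978), Cadps2 (0.970), Trpc6 (0.969) and Gucy2c (0.966).

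Because the genes vary together, a ratio of 2 of them within a library cancels much of the dopamine neuron content and varies far less than either level. The SD within groups, on the log2 scale, was between 0.59 (Gch1 and Ddc) and 0.70 (Slc6a3) for the levels, and between 0.09 (Ddc/Slc18a2) and 0.28 (Gch1/Slc6a3) for the ratios. Ddc/Slc18a2 was the steadiest, between 1.76 and 2.35 in all 59 libraries with a median of 1.98. A ratio asks another question than a level, since a change with cocaine shared by both genes cancels in it. Nor is the cancelling of dopamine neuron content complete. Over the acute, chronic and conditioning libraries, slopes between deviations from the group mean ran from 0.79 (Gch1 per Th) to 1.21 (Slc6a3 per Gch1). How far differences in ratios follow that content was not tested.

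No ratio passed the test for cocaine. Of 60 comparisons (10 pairs of genes and 5 genes relative to the mean of the 15 dopamine neuron markers, in 4 paradigms), none passed an exact two-sided permutation test after adjustment over the 60, and the lowest adjusted p was 0.635. A pair of comparisons had an unadjusted p under 0.05, no more than chance alone gives among 60. Both were in self-administration and both had Slc6a3 as the divisor, so they are not independent of each other. Th/Slc6a3 was 0.23 ± 0.10 (SE, log2) higher with cocaine (exact p = 0.0324), above the saline median in 12 of 15 libraries, and Gch1/Slc6a3 was 0.27 ± 0.10 higher (exact p = 0.0349), above it in 10 of 15. For Th/Slc6a3 the lowest, median and highest ratios were 0.637, 0.980 and 1.24 with cocaine and 0.569, 0.870 and 0.947 with saline, so the groups overlapped. In acute injection the smallest p was that of Gch1/Slc6a3, at 0.27 ± 0.14 (exact p = 0.0931). In chronic injection it was Th/Ddc, at 0.08 ± 0.08 (exact p = 0.318), and in conditioning Gch1 relative to the marker mean, at 0.19 ± 0.13 (exact p = 0.175). The 10 acute ratios of pairs differed by between -0.14 ± 0.09 (Th/Gch1) and 0.27 ± 0.14 (Gch1/Slc6a3), with Th/Ddc at -0.04 ± 0.10, Th/Slc6a3 at 0.13 ± 0.09 and Ddc/Slc6a3 at 0.17 ± 0.12.

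The ratios did differ between self-administration and the other paradigms, in saline libraries where no cocaine was given. Th and Gch1 were lower relative to Ddc, Slc6a3 and Slc18a2, while the ratios of those 3 to each other did not pass the test. The ratios that passed all set Th or Gch1 against those same 3 genes, which vary together, so they are not independent of each other. Between the same saline groups 59.6% of all genes were called in single levels (limma), and how often ratios of other genes differ was not tested. Here too the paradigm and any batch that goes with it cannot be told apart. Gch1/Slc18a2 had a lowest, median and highest of 0.0661, 0.0796 and 0.0987 in self-administration saline and of 0.0949, 0.128 and 0.166 in the other saline libraries, and 7 of the 9 self-administration libraries lay below all 18 others. The difference was -0.60 ± 0.08 (log2, 0.658-fold; adjusted p 5.33e-06, exact permutation test, adjusted over 10 pairs). Ddc/Gch1 separated these saline groups fully: its lowest value was 21.7 in self-administration saline, and its highest was 20.4 in the other saline libraries. That difference was 0.62 ± 0.07 (1.53-fold), with an adjusted p of 2.13e-06 (exact test) from the smallest p that the 4686825 regroupings allow. Gch1/Slc6a3 differed by -0.63 ± 0.10 (adjusted p 1.41e-05, exact).

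Th, the enzyme that uses the cofactor, showed the same direction with a smaller size. Th/Slc18a2 had a lowest, median and highest of 1.24, 2.13 and 2.50 in self-administration saline and of 2.30, 2.67 and 3.23 in the other saline libraries, and 8 of 9 lay below all the others. The difference was -0.43 ± 0.10 (0.741-fold; adjusted p 6.40e-06, exact). Th/Ddc differed by -0.45 ± 0.10 (0.734-fold; adjusted p 9.07e-06, exact) and Th/Slc6a3 by -0.46 ± 0.09 (0.727-fold; adjusted p 1.96e-05, exact), each with all 9 self-administration libraries below the median of the others. In plain levels, Th exceeded Ddc in 17 of 24 self-administration libraries and in 35 of 35 libraries of the other paradigms. It exceeded Slc6a3 in 7 of 15 self-administration cocaine libraries, in 0 of 9 self-administration saline libraries and in 29 of 35 libraries of the other paradigms.

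The remaining 4 ratios did not pass. Ddc/Slc18a2 differed by 0.01 ± 0.03 (adjusted p 0.740, exact), Slc6a3/Slc18a2 by 0.03 ± 0.04 (0.693) and Ddc/Slc6a3 by -0.01 ± 0.05 (0.785). Th/Gch1 differed by 0.17 ± 0.11 (adjusted p 0.0652, exact). It passed without self-administration saline library 0, whose Th was low relative to all 4 other genes: the difference was then 0.25, with an adjusted p of 0.000421 (exact). The 6 ratios that passed also did so against acute, chronic and conditioning saline alone and without any one self-administration saline library.

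**Figure D3:**
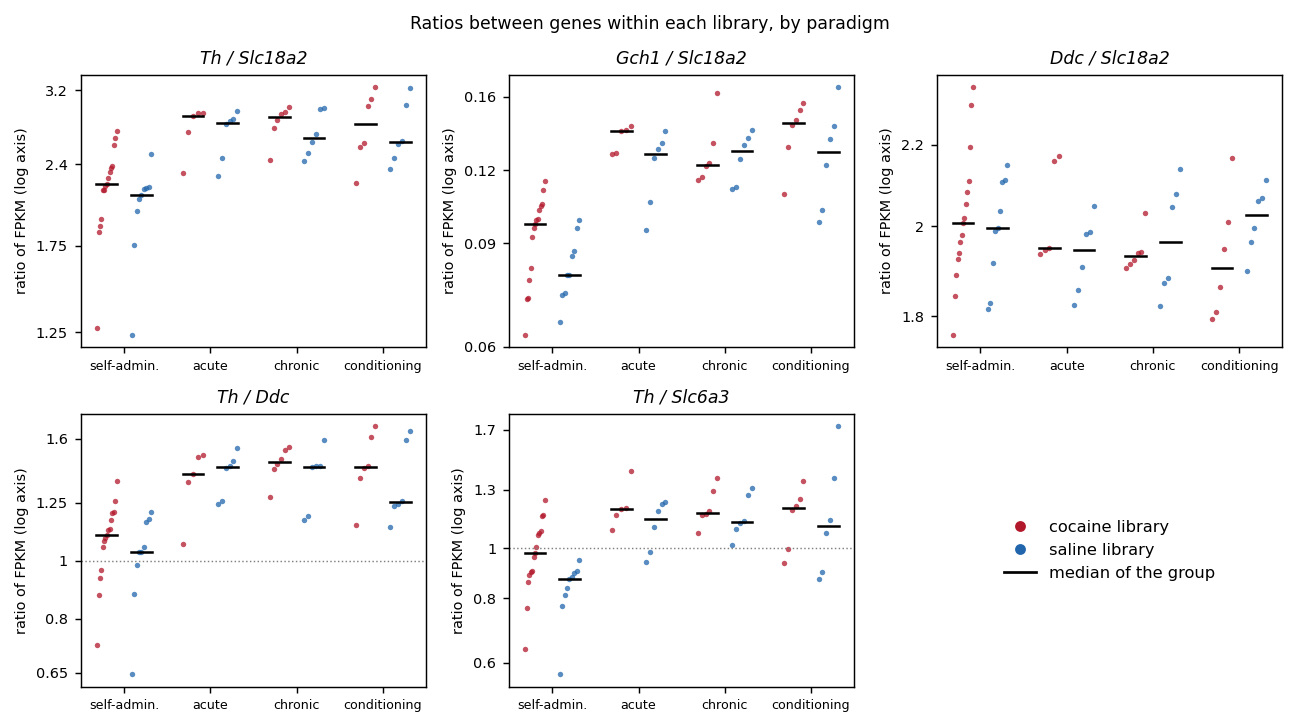
Ratio of FPKM between 2 genes (log axis) in each library, by paradigm, with cocaine (red) left of saline (blue); bars are group medians and the dotted line marks a ratio of 1. Th/Slc18a2 and Gch1/Slc18a2 are lower in self-administration than in the other 3 paradigms, with saline medians of 2.13 against 2.67 and of 0.0796 against 0.128, while Ddc/Slc18a2 stays between 1.76 and 2.35 in every group.

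The same comparison in the cocaine libraries, 15 of self-administration against 17 of the other paradigms, was added after the data were seen. These libraries share none of the saline samples. They carry the same split by paradigm, so here too the paradigm and any batch that goes with it cannot be told apart. Gch1/Slc18a2 differed by -0.55 ± 0.08, Ddc/Gch1 by 0.60 ± 0.06 and Th/Slc18a2 by -0.36 ± 0.08, each with a permutation p of 1e-05, the smallest that 100000 resamples can give, and with 15 of 15 libraries on one side of the other paradigms' median. Ddc/Gch1 did not separate the cocaine groups fully: it was as low as 17.5 in self-administration and as high as 17.8 in the other paradigms. Th/Ddc differed by -0.40 ± 0.07, Gch1/Slc6a3 by -0.49 ± 0.10 and Th/Slc6a3 by -0.29 ± 0.07 (permutation p 2e-05, 3e-05 and 0.00025). Th/Gch1 was 0.20 ± 0.07 higher (adjusted p 0.00993, permutation), so that here Gch1 was lower relative to Th as well. Ddc/Slc18a2 (0.04 ± 0.04), Slc6a3/Slc18a2 (-0.06 ± 0.05) and Ddc/Slc6a3 (0.11 ± 0.07) did not pass.

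**Figure D4:**
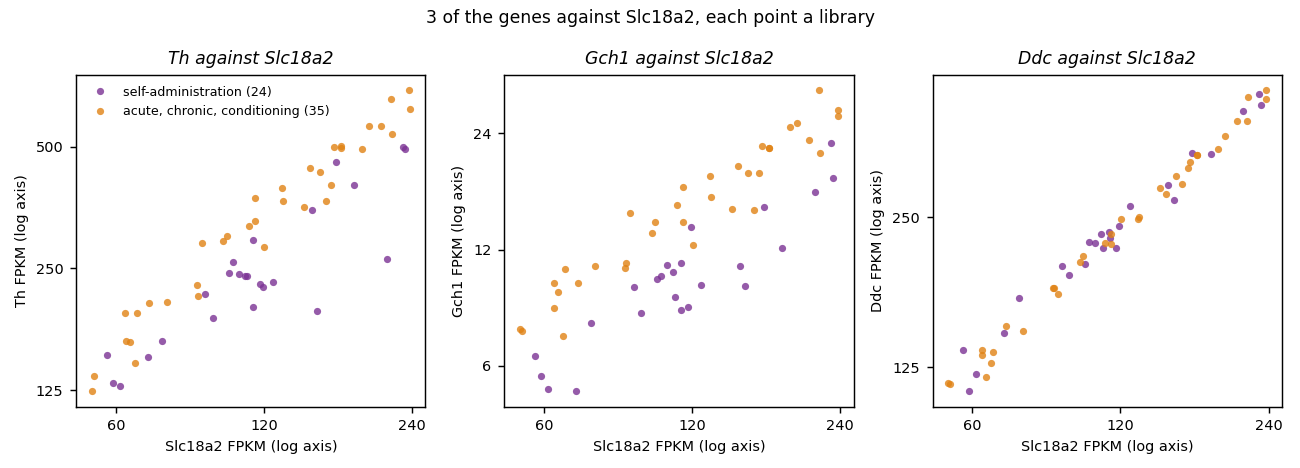
FPKM of Th, Gch1 and Ddc (y axis) against FPKM of Slc18a2 (x axis), both on log axes, in 24 self-administration libraries (purple) and 35 libraries of the other paradigms (orange). For Th and for Gch1 most purple points lie below the orange ones at a like Slc18a2 level, with some overlap: Th/Slc18a2 reaches 2.73 in self-administration and is as low as 2.23 in the other paradigms. For Ddc both sets lie at ratios between 1.76 and 2.35.

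In single levels the same contrast called Gch1 and no other of the 5. Gch1 was -0.59 ± 0.21 (log2) lower in self-administration saline than in the mean of the other 3 saline groups (adjusted p 0.0185, limma), where 27.8% of all genes were called lower. Th was at -0.48 ± 0.25 (adjusted p 0.108), and it passed without self-administration saline library 6 (-0.61, adjusted p 0.0402) and without chronic saline library 2 (-0.56, adjusted p 0.0383). Ddc (-0.03 ± 0.23), Slc6a3 (-0.02 ± 0.27) and Slc18a2 (-0.05 ± 0.26) had adjusted p of 0.917, 0.963 and 0.891. A moderated F test across the 4 saline groups, which called 48.9% of all genes, gave Gch1 an adjusted p of 0.103 and Th 0.351, and the other 3 were at 0.856 or above.

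Several values moved with this difference, and their part in it was not tested. Relative to Slc18a2, all 15 other dopamine neuron markers were lower in self-administration saline, by -2.53 for Pitx3 to -0.01 for Drd2 with a median of -0.28 (log2, given as values without a test). For these markers, but not for the 5 genes, 1 was added to the FPKM, which understates the change of low markers. On these unlike scales 4 markers lay below Gch1 and 5 below Th. In the cocaine libraries 13 of 15 were lower, between -2.24 for Pitx3 and 0.10 for Nr4a2. Pitx3, a transcription factor of midbrain dopamine neurons, had a level of 0.714 ± 0.341 FPKM in self-administration saline (SD, n = 9), against 10.9 ± 3.05, 9.83 ± 4.56 and 9.03 ± 5.58 FPKM in acute, chronic and conditioning saline (n = 6 each). Differences also followed base composition across the transcriptome: with genes sorted by GC content into 10 bins, the bin with the least GC had a median difference of 0.10 and the bin with the most had -0.34. Th (GC content 54.1%) lies in a bin with a median of -0.02 and Gch1 (45.9%) in one with a median of 0.08. With genes sorted by transcript length, the shortest bin had a median of -0.15. Th, at 1950 bases, lies in a bin with a median of -0.11, and Gch1, at 3508 bases, in one with 0.04.

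**Figure D5:**
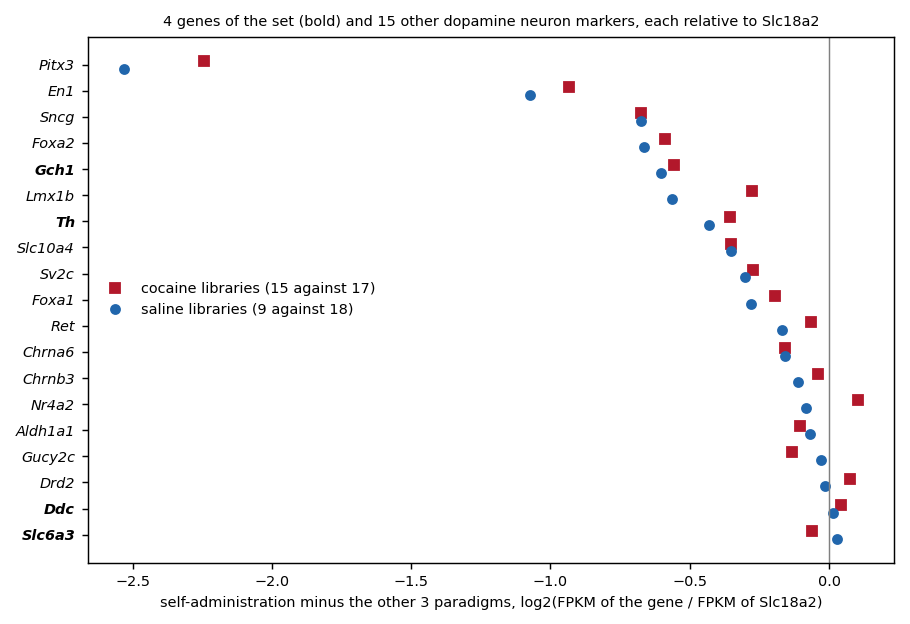
Difference between self-administration and the other 3 paradigms in log2(FPKM of the gene / FPKM of Slc18a2), for cocaine libraries (red squares) and saline libraries (blue circles). In bold are 4 of the 5 genes, among 15 other dopamine neuron markers. For those markers, but not for the 5 genes, 1 was added to the FPKM of the gene. In saline libraries Gch1 (-0.60) and Th (-0.43) lie within the range of the other markers, -2.53 to -0.01, and Ddc and Slc6a3 lie just above 0.

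Other genes of the pathway were called in the same contrast of saline groups, in which 27.8% of all genes were called lower and 31.8% higher. Of the 6 other tetrahydrobiopterin genes, 2 were called lower and none higher: Qdpr (-0.64 ± 0.06, adjusted p 4.00e-10, limma) and Spr, which makes the last step of the cofactor (-0.42 ± 0.05, adjusted p 1.28e-07). Qdpr averaged 246 ± 36.0 FPKM in self-administration saline, against 364 ± 28.2, 379.8 ± 26.0 and 403 ± 30.5 FPKM in acute, chronic and conditioning saline. Gchfr, a feedback regulator of GTP cyclohydrolase, was at -0.16 ± 0.12 (adjusted p 0.253, limma) and Pts at -0.09 ± 0.07 (adjusted p 0.236, limma). The list's median was -0.13, against 0.02 for all genes. Of the 15 dopamine neuron markers, 5 were called lower and none higher, among them Pitx3 (-2.58 ± 0.22), Foxa2 (-0.71 ± 0.09), Lmx1b (-0.61 ± 0.13) and En1 (-1.12 ± 0.25), all transcription factors of midbrain dopamine neurons (adjusted p at most 0.000504, limma).

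Among 5 tested genes of dopamine breakdown and uptake elsewhere, 2 were called higher and 3 lower. Maob, a monoamine oxidase, was 0.41 ± 0.07 higher, and the lower ones included Slc29a4 (-0.58 ± 0.10) and Aldh2 (-0.49 ± 0.12), an aldehyde dehydrogenase (adjusted p at most 0.000704, limma). Of the 8 regulators, 2 were called higher, Ywhaz (a 14-3-3 protein, 0.38 ± 0.03) and Dnajc6 (0.23 ± 0.04), and 3 lower, including Pick1, a partner of the dopamine transporter (-0.29 ± 0.05), and Hspa8 (-0.29 ± 0.05), with adjusted p of at most 4.42e-05 (limma). These shares can be read against the 31.8% of all genes called higher and the 27.8% called lower.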

How the data were processed

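Per the labels' protocols, total RNA was cleaned up with an RNeasy minikit before TruSeq RNA library preparation. The authors deposited FPKM values, 1 row per gene symbol and 1 column per library. Bowtie, Cuffnorm and the build mm10 are named in the submitters' processing notes; their versions, the annotation and the scaling were not stated. Read depth is unknown, so no counting interval is given. Columns are numbered from 0 and could not be tied to the labels' replicate numbers; libraries are named by group and column number.

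Each comparison tested genes averaging 1 FPKM or more on log2(FPKM + 1) by limma 3.58.1 in R 4.3.3 (trend and robust empirical Bayes, two-sided), adjusted by Benjamini and Hochberg over all genes, with 0.05 as the threshold. A fold change on this scale understates the change of low genes. Ratios between the 5 genes were log2 of FPKM without a pseudocount, tested by exact two-sided permutation or, in the cocaine libraries, 100000 resamples (Python 3.11.15, numpy 2.4.6). The other dopamine neuron markers entered as log2(FPKM + 1), both in their mean and relative to Slc18a2. The 60 tests of cocaine against saline and the 10 of saline groups were adjusted as 2 families. The SD within groups of the 5 genes was between 0.59 (Gch1) and 0.70 (Slc6a3) on the log2 scale. Whether the tests recover a change in genes with such a spread was not tested. The 5 genes, the lists and the tests were chosen with earlier results of these data known. Genes named outside the 5 are up to 4 per list with the smallest p (some are not reported here), and the 5 most correlated with each gene. GC content and length came from GENCODE M21 (96.4% of tested genes matched), and promoters from RefSeq tables. Alternatives were another pseudocount (0.1), no filter, quantile normalization, library weights, the marker mean as a covariate, a single fit of all groups, medians or a pseudocount for the ratios, and leaving out libraries.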

Additional observations from a re-analysis of the deposited data

Results flagged for a closer look

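Each gene and each ratio was examined in each group of 5 to 9 libraries for a library far from the rest (Dixon's test), 105 sets of values in all, of which 6 had one. Chance alone gives about 1 in 20. In acute saline, library 0 had the highest Th, 562 FPKM, with the next at 368 FPKM, and the highest Gch1, 25.6 FPKM, with the next at 16.5 FPKM. In self-administration saline, library 0 had the lowest Th/Slc6a3, 0.569, with the next at 0.771; its Th was 264 FPKM beside 463 FPKM of Slc6a3. Ddc/Gch1 was lowest in acute cocaine library 3, at 13.6 (next 15.1), and highest in cocaine conditioning library 3, at 17.8 (next 13.8). Ddc/Slc18a2 was highest in chronic cocaine library 0, at 2.03 (next 1.94).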

How the results depend on the processing

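No paired analysis was possible because the column numbers start at 0 and no source links them to the labels' replicates. Single levels limit what can be seen here, since libraries of a group differ by up to 4.58-fold; depth is unknown. The absence of a cocaine call on the 5 genes held under every alternative run. No ratio passed in any of 63 settings, most of which covered only part of the 60 ratios, such as those of 1 paradigm. The sign of small differences did not hold. Values below are log2 differences, and the cause of each change was not tested. With library weights, acute differences were -0.127 (Th), -0.123 (Ddc), -0.0595 (Gch1), -0.204 (Slc6a3) and -0.147 (Slc18a2). Chronic differences were then -0.0542 (Th), -0.0868 (Ddc), -0.0436 (Gch1), -0.117 (Slc6a3) and -0.106 (Slc18a2). Conditioning differences were then 0.310 (Th), 0.146 (Ddc), 0.313 (Slc6a3) and 0.209 (Slc18a2), self-administration differences 0.105 (Ddc) and 0.0772 (Slc18a2), and the average for Th 0.0789. With the marker mean as a covariate, acute differences were -0.0109 (Th), -0.0490 (Ddc), 0.0539 (Gch1), -0.115 (Slc6a3) and -0.0797 (Slc18a2). Ddc, Slc6a3 and Slc18a2 were then -0.0183, -0.0249 and -0.0162 in chronic, and Th, Ddc, Slc6a3 and Slc18a2 were 0.128, 0.00772, 0.130 and 0.0815 in conditioning. Without self-administration the average for Gch1 was -0.00289. Genes called among all tested were 3 (marker covariate) and 1 (single fit) in chronic, 1 (weights) in conditioning, 1 (weights) and 2 (single fit) in self-administration, and 41 (weights) and 2 (without self-administration) in the average, against 1.

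Between saline groups, Gch1 stayed called in every setting, between -0.80 and -0.49. Th passed with library weights (-0.706, adjusted p 0.0152, limma), as did the F tests of Th (F 3.77, adjusted p 0.0365) and Gch1 (F 6.16, adjusted p 0.00569). With quantile normalization Ddc was 0.00842 and Slc6a3 0.0186. Against acute saline alone Ddc/Slc6a3 was 0.0510 and Slc6a3/Slc18a2 -0.00799, and against conditioning saline alone Ddc/Slc18a2 was -0.0172. The 6 ratios that passed did so in every setting.

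Leaving out 1 library at a time moved acute differences between -0.701 and -0.199 (Th), -0.620 and -0.242 (Ddc), -0.477 and -0.117 (Gch1), -0.859 and -0.338 (Slc6a3) and -0.702 and -0.286 (Slc18a2), with the smallest size always without acute cocaine library 4. It moved chronic differences between -0.00872 and 0.453 (Th), -0.0464 and 0.370 (Ddc), -0.00466 and 0.340 (Gch1), -0.0356 and 0.428 (Slc6a3) and -0.0497 and 0.401 (Slc18a2). The lowest was always without chronic saline library 2, and 0 to 1 genes were called. In conditioning the ranges were -0.274 to 0.157 (Th), -0.328 to 0.0605 (Ddc), -0.137 to 0.258 (Gch1), -0.249 to 0.207 (Slc6a3) and -0.283 to 0.127 (Slc18a2). In self-administration they were -0.0857 to 0.157 (Th), -0.191 to 0.0322 (Ddc), -0.0460 to 0.161 (Gch1) and -0.212 to 0.0261 (Slc18a2). Between saline groups they were -0.607 to -0.365 (Th), -0.135 to 0.0879 (Ddc), -0.151 to 0.106 (Slc6a3) and -0.165 to 0.0735 (Slc18a2). The F of Gch1 ran from 2.08 to 4.27, passing without chronic saline library 2 or self-administration saline library 6. Ddc/Slc6a3 ran from -0.0277 to 0.0158 and Th/Gch1 from 0.117 to 0.254.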

Other observations

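Within self-administration a pair of libraries had little Th for their level of Ddc, Slc6a3 and Slc18a2. Saline library 0 had Th at 264 FPKM, Ddc at 408 FPKM and Slc18a2 at 213 FPKM, and cocaine library 6 had 196, 271 and 154 FPKM. Their Th/Slc18a2 ratios, 1.24 and 1.27, were the lowest of all 59 libraries, the next in self-administration being 1.76, and the lowest in the other 3 paradigms 2.23. Their Th/Gch1 ratios were 15.5 and 20.3, against a median of 23.9 in self-administration. Cocaine library 6 was low in Gch1 too: its Gch1/Slc18a2 of 0.0628 was the lowest of all 59 libraries. Its Th/Gch1 was above the 16.4 of self-administration cocaine library 0. These libraries were picked out after their values were seen, and no test was made.

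In self-administration the spread of several ratios was wider, with and without Th. The SD within groups of log2 Th/Slc18a2 was 0.28 in its 24 libraries and 0.15 in the 35 others. That of Th/Gch1 was 0.26 and 0.14, of Th/Ddc 0.25 and 0.17, and of Th/Slc6a3 0.24 and 0.21. Among ratios without Th it was 0.23 and 0.20 for Gch1/Slc18a2, 0.18 and 0.16 for Ddc/Slc6a3, and 0.11 and 0.08 for Ddc/Slc18a2. It was no wider for Ddc/Gch1 (0.18 and 0.19), Gch1/Slc6a3 (0.28 and 0.29) and Slc6a3/Slc18a2 (0.13 and 0.13). The difference in spread was not tested.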
